A study of Mus musculus with 8 samples.

Results

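Complement is the subject here: 37 genes of its components, receptors and regulators, in the intervertebral discs of mice with proteoglycan-induced spondylitis, an autoimmune inflammation of the spine that follows immunization with cartilage proteoglycan. Members were taken from the expression arrays as every probe set whose platform annotation names 1 of these genes and no other. That gave 59 probe sets for 33 genes, of 34945 probe sets for 18193 genes in all. C3, C4b, C7 and C5ar2 were not analysed here, because no annotated probe set named one of them alone. The immunized group held 5 samples from female BALB/c mice given cartilage proteoglycan with a protein dose of 100 µg, emulsified with dimethyldioctadecylammonium bromide (DDA, 2 mg) as adjuvant, on days 0, 21 and 42. The naive group held 3 samples from age-matched female BALB/c mice that were not immunized, and no adjuvant-only group was analysed here. Age in weeks and the time from the last injection to dissection are not given in the sources used here. Each sample was RNA of 6 pooled lumbar discs (levels L1 to L6). The labels' protocols name 5 immunized and 3 naive mice, but the descriptions of immunized replicate 1 and naive replicate 3 each join 2 sample numbers.

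Complement is a cascade of plasma proteins that marks surfaces for uptake and draws in leukocytes. The classical pathway starts when C1q binds antibody on a surface and its proteases C1r and C1s cleave C4 and C2, the lectin pathway when mannose-binding lectins or ficolins bind sugars, and the alternative pathway by factor B on deposited C3b. All converge on C3 and then C5, whose small fragments C3a and C5a act on receptors of myeloid cells, and the terminal components form a pore in membranes. Most circulating components come from the liver, whereas macrophages make C1q, and chondrocytes and fibroblasts can make several components and regulators locally.

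Values are log2 expression of a gene relative to its median over the 8 arrays, averaged over its probe sets, so a difference of 1 between groups is a doubling. The level itself was removed from the deposited table, so no gene's level can be set against another's. The printed digits still showed a coarse class of signal: 28 of the 59 member probe sets were at 8 or more on the log2 scale in every array, 29 had an array from 4 to 8, and 2 (those of Mbl2 and C4bp) had an array below 4. In these female mice some probe sets of the Y-linked gene Kdm5d also fell in the class from 4 to 8, and the other Y-linked probe sets checked fell below 4. The class from 4 to 8 therefore does not by itself show expression. Of 13 markers of cartilage and nucleus pulposus, 11, Acan and Col2a1 among them, had a probe set at 8 or more in every array. So had 10 of 11 neutrophil markers, 10 of 10 fibroblast and stroma markers and 8441 of all 18193 genes. The class therefore cannot identify the tissue. All 13 cartilage and nucleus pulposus markers had a negative difference between immunized and naive discs, and 5 of them (38.5%) fell past the threshold used below. These are bulk samples, so a larger share of cells that use a gene and more RNA of it per cell cannot be told apart.

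Of the 33 complement genes, C3ar1, C5ar1, C1s1 and Cfi rose in immunized discs. No member fell past the threshold, an adjusted p of 0.05 in limma with Benjamini-Hochberg adjustment over all genes. Over all 18193 genes 9.14% passed (4.46% higher, 4.68% lower), so the members' share of 12.1% lay near the background. At an unadjusted p under 0.05, 10 members (30.3%) had higher and 5 (15.2%) lower values, against 12.9% and 18.2% of all genes. The 5 immunized values lay above all 3 naive values in 8 members (24.2%, against 9.39% of all genes) and below them in 3 (9.09%, against 14.0%), so 33.3% of members did not overlap, against 23.4% of all genes. The median difference was 0.196 over the 33 members and -0.0354 over all genes. Differences ran from -0.56 for C2 to 2.43 for C3ar1. By role, medians were highest for the receptors and C1q binding proteins (0.829, 6 genes) and for the classical pathway (0.762, 6 genes), and lowest for the terminal pathway (-0.175, 6 genes) and the lectin pathway (-0.0651, 6 genes).

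**Figure D1:**
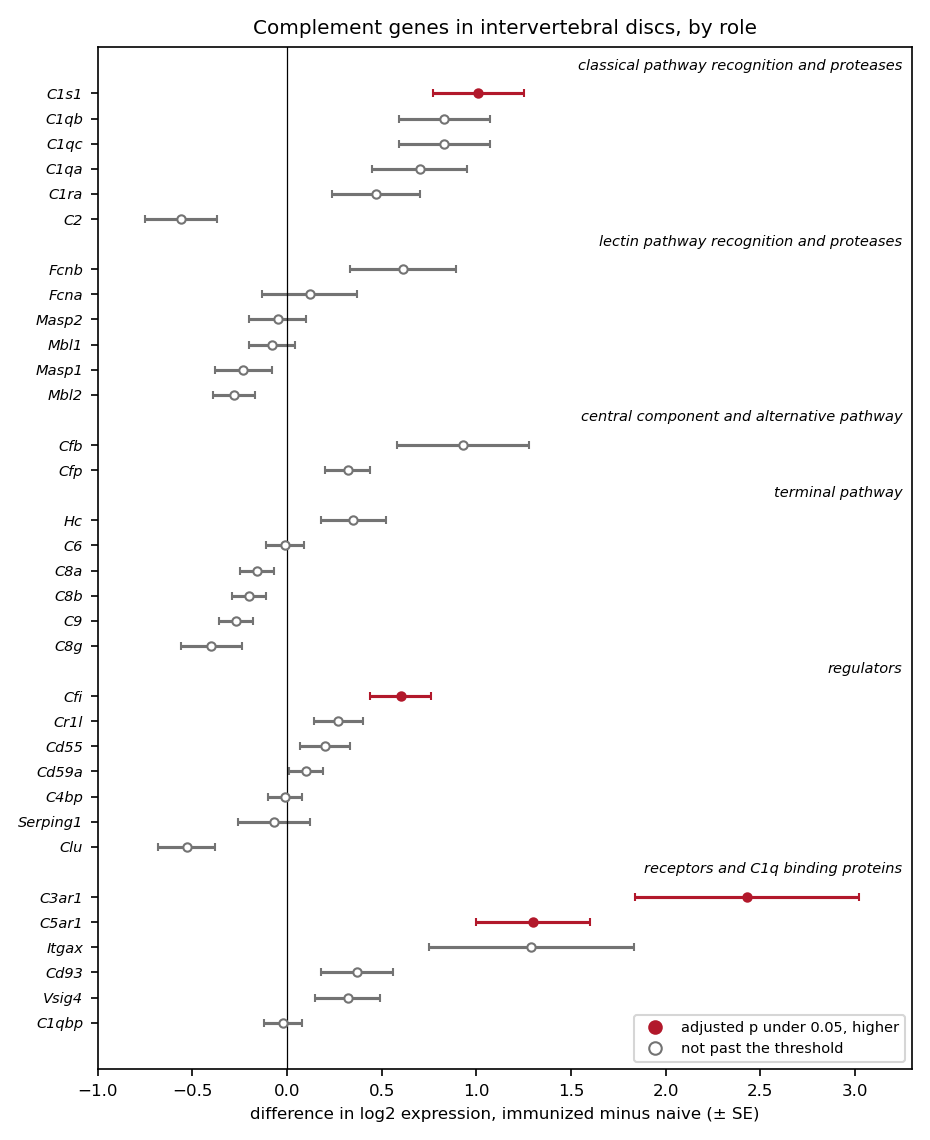
Difference in log2 expression between immunized and naive discs (horizontal axis, points with limma's standard error, 5 against 3 samples) for the 33 complement genes, grouped by role. Filled red points mark the 4 genes past the threshold, among which C3ar1 (2.43) lies farthest right; open points did not pass.

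The call of each of these 4 genes depended on single samples, as did the number of genes called in the whole series. Over all 18193 genes 1663 were called with all samples and 3003 without immunized replicate 2. With any other single sample left out, from 21 to 868 were called. With 1 sample left out at a time, C1s1 passed in 3 of 8 omissions (immunized replicates 2, 3 and 4), C3ar1 in 2 (immunized replicates 2 and 5), C5ar1 in 2 (naive replicate 1 and immunized replicate 2) and Cfi in 1 (immunized replicate 2), while their differences stayed positive in all 8. Quantile normalization of the deposited values ended all 4 calls narrowly, the adjusted p in limma lying between 0.0504 for C5ar1 and 0.0556 for Cfi. The deposited values were centred per probe set, so this step gave the deviations of each array, and not its signal, the same distribution. Without adjustment 9 members were then higher and 4 lower at the same threshold, as were 2302 and 2650 of the 18193 genes. Without the pair of samples whose descriptions join numbers, none of the 4 passed (adjusted p in limma from 0.168 to 0.182), with differences of 2.09 for C3ar1, 1.26 for C5ar1, 0.98 for C1s1 and 0.63 for Cfi. In that setting 0 of all 18193 genes passed in limma, and 1621 were higher and 2173 lower without adjustment.

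The receptors for the anaphylatoxins held the largest member differences that passed. C3ar1 encodes the receptor for C3a. It stood at 2.24, 0.72, 0.37, 2.34 and -0.37 in immunized replicates 1 to 5, against -1.45, -1.20 and -1.47 in naive replicates 1 to 3. Immunized replicates 1 and 4 were far above the others, replicate 5 was lowest, and a gap of 0.83 still parted the groups. C3ar1 rose by 2.43 ± 0.59 (SE, adjusted p = 0.0396), or 5.41-fold. The immunized values spread far more than the naive ones (SD 1.19, n = 5, and 0.15, n = 3). Its 3 probe sets differed by 2.84, 2.26 and 2.20, and the first alone passed when probe sets were tested singly (adjusted p = 0.0354). In that test 5 of the 59 member probe sets passed, against 6.19% of all probe sets.

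C5ar1 encodes the C5a receptor of neutrophils and macrophages. Its values were 0.46, -0.11, 0.91, 0.09 and 0.48 in immunized replicates 1 to 5, against -0.26, -1.57 and -0.97 in naive replicates 1 to 3. Here immunized replicate 3 was highest, and naive replicate 1 lay only 0.15 below the lowest immunized sample. C5ar1 rose by 1.30 ± 0.30 (adjusted p = 0.0367), or 2.47-fold, and its 2 probe sets rose by 1.55 and 1.05, both past the threshold singly.

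Itgax, the alpha chain of complement receptor 4 and a marker of dendritic cells and of some macrophages, was at 0.93, 0.01, -0.01, 2.62 and 0.52 in immunized replicates 1 to 5, against -0.18, -0.48 and -0.76 in naive replicates 1 to 3. The groups did not overlap, but immunized replicate 4 stood far above the rest. The difference of 1.29 ± 0.54 did not pass (adjusted p = 0.144), and it was 0.84 without immunized replicate 4. The remaining receptors and binding proteins differed less, and their groups overlapped. Vsig4, the receptor of resident macrophages for C3b and iC3b, differed by 0.32 ± 0.17, and Cd93, first described as a C1q receptor, by 0.37 ± 0.19 with 5 probe sets that ranged from 0.02 to 0.57. C1qbp, a largely mitochondrial protein that binds C1q, differed by -0.02 ± 0.10.

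The promoter of C3ar1 is printed because C3ar1 had the largest difference of all members. It runs from 250 bases before to 50 after the annotated start (RefSeq, GRCm38.p6, chr6:122856108-122856407, minus strand), with capitals for the single match among 4 motifs searched on both strands.
C3ar1: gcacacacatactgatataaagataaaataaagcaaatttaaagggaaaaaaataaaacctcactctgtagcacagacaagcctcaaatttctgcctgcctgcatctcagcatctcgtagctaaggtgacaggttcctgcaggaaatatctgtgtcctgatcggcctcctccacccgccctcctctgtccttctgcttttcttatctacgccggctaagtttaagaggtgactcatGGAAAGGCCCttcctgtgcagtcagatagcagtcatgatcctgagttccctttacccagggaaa
The match is to a form of the NF-kB motif (GGG, any 2 bases, then TTTCC), on the opposite strand, and starts at base -14. This motif occurred in 1.63% of 32841 promoters of that length and in 1 of 31 member promoters. The other motifs were GAGGAA (the core bound by the myeloid factor PU.1, in 28.3% of all promoters), TTCNNNGAA (STAT, 8.3%) and TTGCNNAA (C/EBP, 10.8%). They occurred in 8, 4 and 6 of the 31 promoters, which belonged to 28 members. A match of letters is no evidence of binding.

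**Figure D2:**
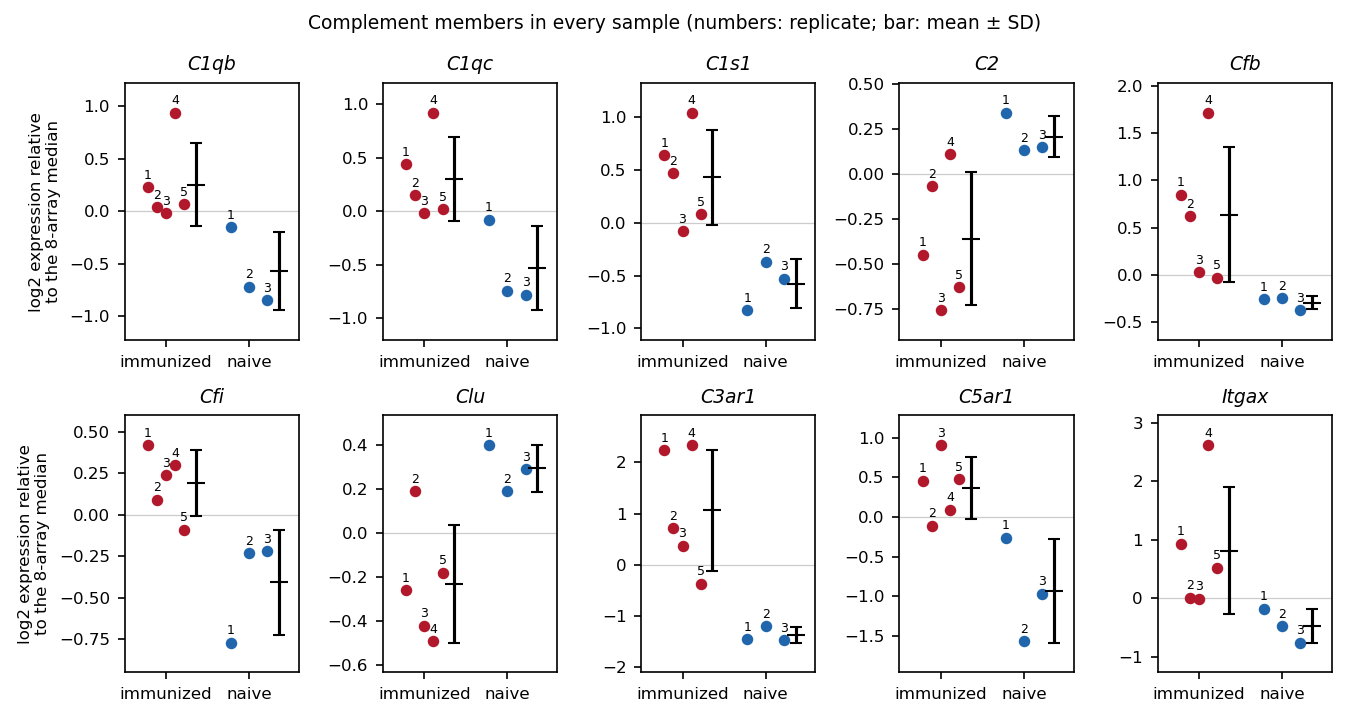
Log2 expression relative to the 8-array median (vertical axis, own scale in each panel) for the 10 complement members that passed the threshold or whose groups did not overlap with a difference of at least 0.5 in size, with immunized samples in red, naive samples in blue, replicate numbers above the points and mean ± SD beside them. C1qb, Cfb and Itgax are highest in immunized replicate 4, C3ar1 in replicates 4 and 1, and C5ar1 in replicate 3; in Clu, immunized replicate 2 lies level with naive replicate 2.

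Among the classical pathway genes C1s1 rose. It encodes C1s, the protease of the C1 complex that cleaves C4 and C2. C1s1 was at 0.64, 0.47, -0.08, 1.04 and 0.08 in immunized replicates 1 to 5, against -0.83, -0.37 and -0.53 in naive replicates 1 to 3, with no overlap. The rise was 1.01 ± 0.24 (adjusted p = 0.0388), or 2.01-fold. Its only probe set is of the kind (_s_at) that can bind transcripts of a related gene. C1ra, the gene of the partner protease C1r, was highest in the same 3 samples (0.86 in immunized replicate 4, 0.61 in replicate 2, 0.52 in replicate 1), yet immunized replicates 3 and 5 (-0.15 and -0.01) lay within the naive range of -0.28 to 0.01. Its difference of 0.47 ± 0.23 did not pass (adjusted p = 0.193).

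The 3 genes for the chains of C1q varied alike over the samples. C1qb was at 0.23, 0.04, -0.02, 0.94 and 0.07 in immunized replicates 1 to 5, against -0.15, -0.72 and -0.85 in naive replicates 1 to 3. C1qc was at 0.44, 0.15, -0.02, 0.92 and 0.02 in the immunized samples, against -0.08, -0.74 and -0.78 in the naive samples. C1qa was at 0.40, 0.06, 0.03, 0.93 and -0.12, against -0.03, -0.56 and -0.72. In all 3 genes immunized replicate 4 was highest and naive replicate 1 lay close to the lower immunized samples, above the other naive samples. None passed: the differences were 0.83 ± 0.24 for C1qb (adjusted p = 0.0619), 0.83 ± 0.24 for C1qc (0.0614) and 0.70 ± 0.25 for C1qa (0.0976). C1qc, C1qb and Clu were the members just short of the threshold, and Cfi (0.0485) the one just past it. Without naive replicate 1 the differences of C1qb and C1qc were 1.04 and 1.06, and without immunized replicate 4 they were 0.65 and 0.68; neither passed in either setting. Of the 3 probe sets of C1qb tested singly in limma, only one, of the _x_at kind, passed (0.97, adjusted p = 0.038). The other probe sets of C1qb differed by 0.75 each (adjusted p = 0.106 for each).

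The promoters of C1qb and C1qc, genes of neighbouring position that varied alike over the samples, are printed with capitals for matches to the same 4 motifs (RefSeq, GRCm38.p6, minus strand, chr4:136886151-136886450 for C1qb and chr4:136892865-136893164 for C1qc).
C1qb: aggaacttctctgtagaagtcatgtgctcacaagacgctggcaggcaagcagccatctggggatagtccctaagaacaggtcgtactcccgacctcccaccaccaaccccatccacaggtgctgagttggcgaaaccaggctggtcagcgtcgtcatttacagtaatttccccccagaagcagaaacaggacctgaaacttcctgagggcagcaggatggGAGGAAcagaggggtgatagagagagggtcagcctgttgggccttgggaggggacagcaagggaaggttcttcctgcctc
C1qc: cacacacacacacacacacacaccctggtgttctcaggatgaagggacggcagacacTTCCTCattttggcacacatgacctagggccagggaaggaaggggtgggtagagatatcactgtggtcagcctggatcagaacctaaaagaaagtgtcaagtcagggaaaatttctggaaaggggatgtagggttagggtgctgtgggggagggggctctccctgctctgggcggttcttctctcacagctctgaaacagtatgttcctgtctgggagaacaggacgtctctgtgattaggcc
Each holds 1 match, to the PU.1 core, at base -30 in C1qb and, on the opposite strand, at base -193 in C1qc. That core is held by 28.3% of all promoters.

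C2, the component that C1s cleaves to build the classical C3 convertase, had a negative difference. It stood at -0.45, -0.07, -0.76, 0.11 and -0.63 in immunized replicates 1 to 5, against 0.34, 0.13 and 0.15 in naive replicates 1 to 3. The groups were parted by only 0.021, immunized replicate 4 lying next to the naive samples. The difference of -0.56 ± 0.19 did not pass (adjusted p = 0.092), and its 3 probe sets ranged from -0.64 to -0.45.

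In the alternative pathway neither gene passed. Cfb encodes factor B, the protease of the alternative C3 convertase. It was at 0.85, 0.62, 0.03, 1.72 and -0.03 in immunized replicates 1 to 5, against -0.26, -0.25 and -0.38 in naive replicates 1 to 3. Immunized replicate 4 was again highest, and replicates 3 and 5 were closest to the naive samples. The SD was 0.71 among the immunized (n = 5) and 0.08 among the naive samples (n = 3). The difference of 0.93 ± 0.35 had an adjusted p of 0.115. Cfp encodes properdin, which stabilises that convertase and is released by neutrophils. It differed by 0.32 ± 0.12 (adjusted p = 0.111), its probe sets by 0.56 and 0.08, and its groups overlapped.

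Among the 7 regulators, Cfi rose and 6 did not pass. Cfi encodes factor I, the protease that inactivates C3b and C4b. It was at 0.42, 0.09, 0.24, 0.30 and -0.09 in immunized replicates 1 to 5, against -0.77, -0.23 and -0.22 in naive replicates 1 to 3. The rise of 0.60 ± 0.16 (adjusted p = 0.0485), or 1.51-fold, leaned on naive replicate 1, the lowest sample, and was 0.42 (adjusted p = 0.114) without it. Clu encodes clusterin, a chaperone that also blocks assembly of the terminal pore. It was at -0.26, 0.19, -0.42, -0.49 and -0.18 in the immunized samples, against 0.40, 0.19 and 0.29 in the naive samples. Immunized replicate 2 lay level with naive replicate 2, 0.0065 below it, and the other immunized samples were lower. The mean of the cartilage and nucleus pulposus markers was -0.36, 0.35, -0.79, -0.43 and -0.74 in immunized replicates 1 to 5, so replicate 2 was also nearest to the naive samples (0.48, 0.61 and 0.71) in that mean. The part of these markers in the values of Clu was not tested. The difference of Clu, -0.53 ± 0.15, did not pass (adjusted p = 0.0567). It passed without immunized replicate 2 (-0.63, adjusted p = 0.00806) and without _x_at and _s_at probe sets (-0.68, adjusted p = 0.0456). That second setting left, of the 4 probe sets of Clu, only the one with the largest difference. It did not pass singly in limma (adjusted p = 0.0533), and the other probe sets differed by -0.48 to -0.46.

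The membrane regulators showed small differences with overlapping groups. These were 0.20 ± 0.13 for Cd55 (decay accelerating factor), 0.10 ± 0.09 for Cd59a (which blocks the terminal pore) and 0.27 ± 0.13 for Cr1l (the rodent regulator Crry). Serping1, the inhibitor of C1r and C1s, differed by -0.07 ± 0.19 and ranged from -0.46 in immunized replicate 3 to 0.45 in immunized replicate 4. C4bp, the plasma protein that binds C4b, differed by -0.01 ± 0.09.

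None of the 6 lectin pathway genes passed in limma, and 1, Mbl2, was lower at an unadjusted p under 0.05. Fcnb, ficolin B of immature and mature myeloid cells, was at 0.18, -0.23, 0.85, -0.03 and 0.66 in immunized replicates 1 to 5, against 0.03, -0.17 and -0.84 in naive replicates 1 to 3. Immunized replicates 3 and 5 were highest and the groups overlapped, with a difference of 0.61 ± 0.28 (adjusted p = 0.175). Fcna, ficolin A, was high in the same 2 samples (0.53 and 0.54) but differed by only 0.12 ± 0.25. The recognition lectins Mbl1 and Mbl2 differed by -0.08 ± 0.12 and -0.28 ± 0.11, and the proteases Masp1 and Masp2 by -0.23 ± 0.15 and -0.05 ± 0.15. Masp1 had 5 probe sets, which ranged from -0.36 to 0.06.

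None of the 6 terminal pathway genes passed in limma, and 2, C9 and C8g, were lower at an unadjusted p under 0.05. C9, which forms the wall of the pore, was at -0.01, 0.01, -0.08, -0.14 and -0.12 in immunized replicates 1 to 5, against 0.05, 0.42 and 0.14 in naive replicates 1 to 3. Its groups did not overlap, but the difference of -0.27 ± 0.09 was small (adjusted p = 0.0946). The other pore genes differed by -0.01 ± 0.10 (C6), -0.16 ± 0.09 (C8a), -0.20 ± 0.09 (C8b) and -0.40 ± 0.16 (C8g). Hc, the gene of C5, differed by 0.35 ± 0.17, with immunized replicate 5 highest (0.73). In each terminal pathway gene the lowest array lay between 4 and 8 on the log2 scale, and none had a probe set at 8 or more throughout. That class also held probe sets of the Y-linked gene Kdm5d, so it does not by itself show expression. Of 8 hepatocyte markers 0 passed in limma and 2 were lower unadjusted; the median difference was -0.214 and the mean over the list lay between -0.22 and 0.11 in immunized and between 0.12 and 0.29 in naive samples. The part of these markers in the terminal pathway values was not tested.

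**Figure D3:**
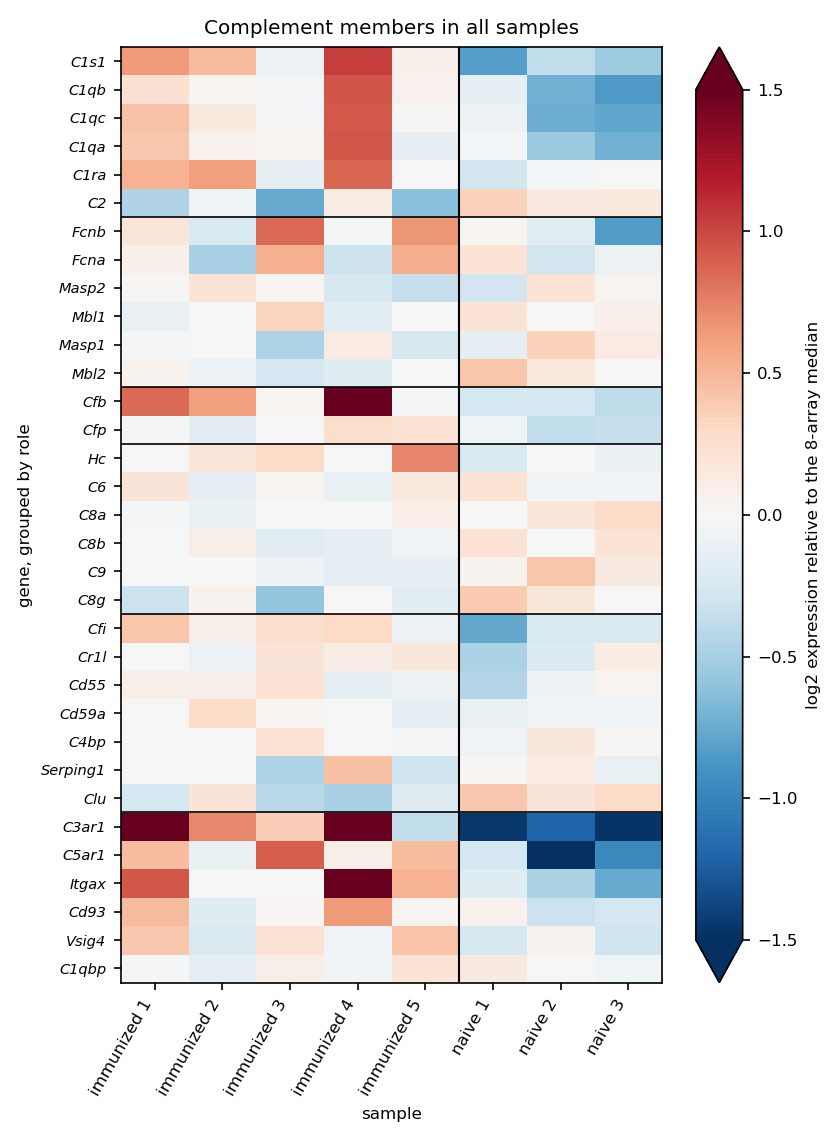
Log2 expression relative to the 8-array median (colour, red above and blue below it, saturating at 1.5 either way) for the 33 complement members in rows, grouped by role, and the 8 samples in columns, immunized left of naive. C1q, C1s1, C1ra, Cfb and Itgax are reddest in immunized replicate 4, C3ar1 in replicates 1 and 4, and Fcnb and C5ar1 in immunized replicate 3.

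The immunized samples did not share 1 complement profile. Immunized replicate 4 was the highest immunized sample in 13 of the 33 members, among them all measured C1q, C1s1, C1ra, Cfb, C3ar1 and Itgax, and was lowest in 4. Immunized replicate 3 was highest in 6 (C5ar1 and Fcnb among them) and lowest in 11. These counts were not set against all genes, so they may not be particular to complement. The arrays also differed in spread: the SD over all probe sets was 0.214, 0.209, 0.316, 0.232 and 0.299 in immunized replicates 1 to 5. It was 0.411, 0.294 and 0.287 in naive replicates 1 to 3, so naive replicate 1 had the widest spread of all arrays. Macrophage markers were also high in immunized replicates 1 and 4: their mean was 0.71, 0.01, 0.21, 0.66 and 0.16 in immunized replicates 1 to 5, against -0.58, -0.92 and -0.90 in naive replicates 1 to 3. Of 12 such markers 8 passed, all higher (66.7%), including Adgre1 (1.45 ± 0.26), Cd14 (2.06 ± 0.46), Aif1 (1.44 ± 0.24) and Ctss (1.97 ± 0.28). The other 4 did not pass: Cd163 (0.88 ± 0.29), Cd68 (0.60 ± 0.34), Trem2 (0.42 ± 0.28) and Csf1r (0.14 ± 0.19). Not all markers followed the order of samples in that mean. Cd163 was lowest among the immunized samples in replicate 4 (-0.68), Mrc1 was at 0.04 there, and Itgam was highest in replicates 3 and 5. Neutrophil markers were highest in immunized replicates 3 and 5, like the ficolins. The mean of these markers was 0.20, -0.14, 0.55, 0.04 and 0.57 in the immunized samples, against -0.06, -0.59 and -0.69 in the naive samples, and 3 of 11 passed, all higher. The mean of 10 marrow markers was highest in the same immunized samples. It was 0.20, -0.18, 0.57, -0.09 and 0.35 in immunized replicates 1 to 5, against 0.10, -0.34 and -0.24 in the naive samples. C5ar1 was also highest in replicate 3, but replicates 5 (0.48) and 1 (0.46) lay level. Its 2 probe sets ordered these replicates differently (0.90 and 0.63 in one, 0.06 and 0.30 in the other, for replicates 5 and 1). Naive replicate 1 was the highest naive sample in the macrophage, neutrophil and marrow means, as it was in C1qa, C1qb, C1qc and C5ar1. The part of these markers in the complement differences was not tested, and with 5 immunized samples no correlation was computed.

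**Figure D4:**
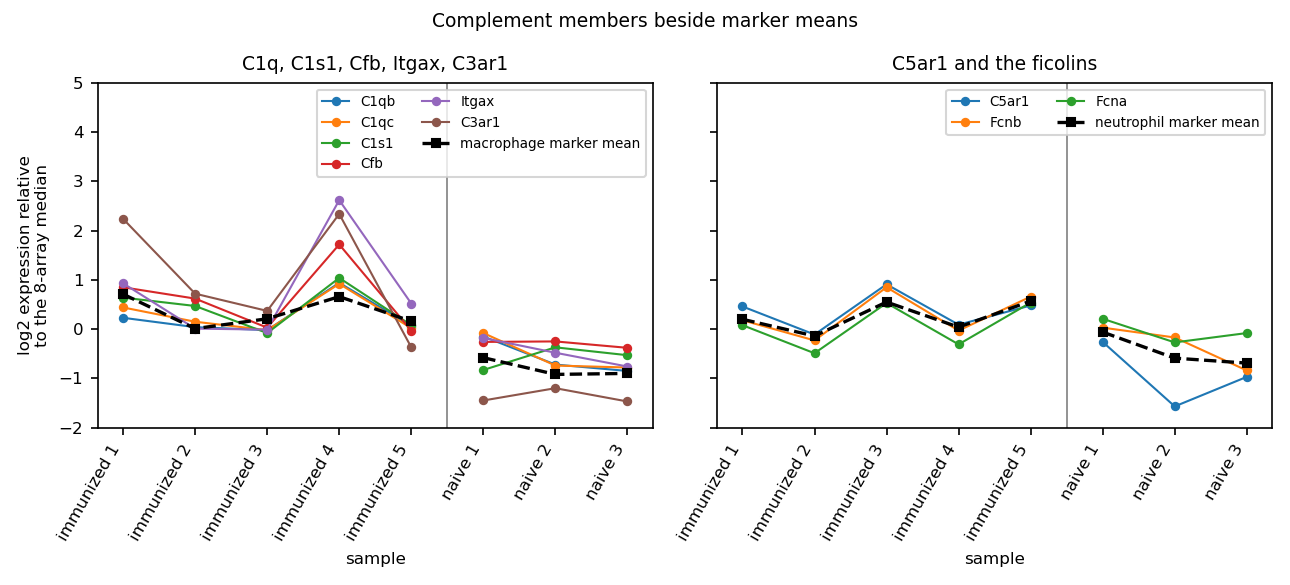
Log2 expression relative to the 8-array median (vertical axis) in each sample (horizontal axis, immunized left of the grey line, naive right of it) for complement genes chosen after their values were seen, with the mean of the macrophage markers (left panel) or neutrophil markers (right panel) as black squares. Lines join the values of 1 gene and imply no order of samples. Left, immunized replicates 1 and 4 stand highest in C3ar1, Itgax, Cfb and the macrophage mean. Right, immunized replicates 3 and 5 stand highest in the ficolins and the neutrophil mean. The mean of the marrow markers, not drawn, was highest in the same immunized samples. C5ar1 is highest in immunized replicate 3, with replicates 5 and 1 level.

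Markers of further cell types gave the following values. Of 10 fibroblast and stroma markers and 7 dendritic cell markers 0 passed in limma, with 1 higher in each list at an unadjusted p under 0.05 and median differences of 0.212 and 0.0671. The fibroblast mean was 0.27, 0.07, -0.28, 0.47 and -0.01 in immunized replicates 1 to 5, so it was also highest in replicates 4 and 1, against -0.12, -0.08 and -0.06 in the naive samples. Of 8 endothelial markers 1 rose (Erg, 0.33 ± 0.07). Of 10 marrow markers 1 rose (Mki67, 0.95 ± 0.23), and the other 9, from Hba-a1 (-0.03) to Kit (0.60), did not pass. Of 8 plasma cell markers 3 rose (Jchain, 2.99 ± 0.27, Ighm, 1.71 ± 0.38, and Xbp1, 0.26 ± 0.07). The other 5 were Prdm1 (0.68), Mzb1 (0.01), Sdc1 (-0.09), Tnfrsf17 (-0.14) and Irf4 (-0.18), and none passed. Median differences were 0.283 for the marrow and 0.135 for the plasma cell list. The endothelial mean was 0.15, 0.11, 0.02, 0.47 and -0.07 in immunized replicates 1 to 5, again highest in replicates 4 and 1, against -0.12, -0.11 and -0.19 in the naive samples. The dendritic cell mean lay between -0.16 and 0.16 in immunized and between -0.05 and 0.01 in naive samples. It was lowest in immunized replicate 4, the sample highest in Itgax. The means of the other lists lay between -0.18 and 0.57 (marrow) and 0.09 and 0.19 (plasma cells) in immunized samples, against -0.34 to 0.10 and -0.72 to -0.20 in naive samples. Without naive replicate 1 and immunized replicates 3 and 5, the samples of each group highest in marrow markers, 1 member passed, C1s1 (1.17, adjusted p = 0.0461), and 12 members had a positive and 2 a negative difference with an unadjusted p under 0.05, as had 1935 and 2107 of the 18193 genes.

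Beyond the 33 members, 22 of 30 further complement genes had a probe set of their own, and 2 passed, both higher (9.09%, close to the 9.14% of all genes). The median difference was -0.0195. Those that rose were Itgam (1.81 ± 0.29, adjusted p = 0.0164), the alpha chain of complement receptor 3, and Itgb2 (1.06 ± 0.27, adjusted p = 0.0432), the beta chain that it shares with Itgax. Itgam is also 1 of the 8 macrophage markers that passed. Itgam was at 0.62, -0.03, 1.26, 0.03 and 0.77 in immunized replicates 1 to 5, against -0.94, -1.48 and -1.43 in naive replicates 1 to 3. It was highest in immunized replicates 3 and 5, unlike Itgax, which was highest in replicate 4. Cpn2, a subunit of the carboxypeptidase that inactivates C3a and C5a, had a difference of -0.62 ± 0.18, short of the threshold (adjusted p = 0.0612). Csmd1 to Csmd3, Crp, Apcs and Calr each differed by less than 0.20 in size.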

How the data were processed

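The authors deposited log2 values from robust multi-array averaging (RMA, version not given in the sources used here), 1 for each probe set on each array, per the submitters' processing notes. The median of each of the 45101 probe sets over the 8 arrays is 0 to within 5e-07, so the values were centred per probe set, a step that the labels do not record; group differences are unaffected. The table does not state the log base, which was taken from RMA. Level classes were read from the spacing of the printed digits. Symbols came from the platform annotation (34958 probe sets naming 1 gene, 932 several, 9211 none); 64 control probe sets were left out. Each gene is the mean of the probe sets that name it alone. Immunized and naive samples were compared in limma 3.58.1 (R 4.3.3; lmFit, eBayes, two-sided), adjusted by Benjamini-Hochberg over 18193 genes at 0.05, and the procedure was tested on simulated data. Errors are limma's SE.

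Members, gene lists (other complement genes, and markers of macrophages, neutrophils, dendritic cells, fibroblasts, endothelium, hepatocytes, cartilage, marrow and plasma cells), settings and the naming rule (every member past the threshold, or with groups that do not overlap and a difference of at least 0.5, gets its value in every sample) were chosen with earlier results of these data known. C9, C1qa, Fcnb and Itgam were given in every sample outside that rule, after their values were seen. The titles call the replicates biological; where samples are not separate animals, p-values measure only the spread between samples. No batch was given in the sources used here, and the small number of arrays limits precision. Over the 3 replicate numbers shared by both groups, deviations from the group means correlated at -0.047, 0.243 and -0.101 over genes, so the numbers were not taken as pairs.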

Additional observations from a re-analysis of the deposited data

Results flagged for a closer look

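Within the 5 immunized samples, 2 of the 33 members had 1 sample far from the others by Dixon's criterion, which chance alone meets in about 1 of 20 groups. C1qb was highest in immunized replicate 4 (0.94), with a gap to the next sample of 0.747 of the whole range. C4bp was highest in immunized replicate 3 (0.22), with a gap of 0.865 of the range, although its differences between samples were small and its probe set had an array below 4 on the log2 scale. Without immunized replicate 4 the difference of C1qb was 0.65 and, as with all samples, did not pass (adjusted p = 0.0598).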

How the results depend on the processing

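Over all genes 1663 were called, and 4 members and 2 further complement genes. The numbers were 908 (540 higher and 368 lower, against 812 and 851), 0 and 1 after quantile normalization; 5900, 17 and 7 with array weights, which gave naive replicate 1 the lowest weight; 0, 0 and 0 without both samples with joined numbers (1621 higher and 2173 lower genes at an unadjusted p under 0.05); 218, 1 and 1 without naive replicate 1 and immunized replicates 3 and 5; and 3783 (20.8%), 10 and 3 at an adjusted p of 0.1. The array weights ran from 0.2734 for naive replicate 1 to 3.985 for immunized replicate 1, whose description joins sample numbers. They lay between 0.615 and 0.899 for the other immunized samples, so the counts with array weights lean on immunized replicate 1. With probe sets tested singly, 4 further complement genes had a called probe set. With the replicate number as a block 7 genes, 0 members and 0 further complement genes were called in limma (9 members higher and 4 lower unadjusted, against 1845 and 2057 of all genes); that fit has few residual degrees of freedom and the numbers did not pair the samples. With 1 sample left out, the counts ran from 21 to 3003 genes, 0 to 5 members and 0 to 3 further complement genes. The 0 members without naive replicate 2, naive replicate 3 or immunized replicate 1 stand beside 6, 7 and 9 higher and 3, 5 and 4 lower members unadjusted (all genes: 1971, 2090 and 1950 higher, 2658, 2945 and 2629 lower). No named member reversed its direction under any listed setting. Settings not mentioned here kept all 3 counts within 1.5 times. The trended and robust variance model called 6 members, with C1qc and Clu added. The probe set values carry no absolute level, so signal over background limits each gene by an unknown amount beyond the coarse classes.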

Other observations

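Probe sets that name a member together with a near-identical gene were left out of the gene values. The one for C4a and C4b was at 0.55, 1.11, 0.05, 0.34 and -0.05 in immunized replicates 1 to 5, against -0.35, -0.23 and -0.34 in naive replicates 1 to 3. The groups did not overlap, and the difference of 0.71 ± 0.24 did not pass limma's test over all probe sets (adjusted p = 0.0966). The one for C1ra and C1rb differed by 0.35 ± 0.16 (adjusted p = 0.188) and was highest in immunized replicate 4 (0.65), and the one for Cd55 and Cd55b by 0.18 ± 0.10 (adjusted p = 0.27).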
